A study of Capra aegagrus with 10 samples.

Results

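The miR-17, miR-18 and miR-19 miRNAs were described in small RNA libraries of goat mammary gland cells. They were taken from the deposited table by name, as every goat miR-17, miR-18a, miR-18b, miR-19a, miR-19b, miR-20a, miR-20b, miR-93, miR-106a and miR-106b entry with any arm. The rule found 16 of the 2233 small RNA identifiers, among 369 known and 1034 predicted miRNAs. Each of 5 groups had 2 libraries, all from mammary gland of Lanshan dairy goat, and the design text states culture in 3D. The groups are labelled Blank, Lv5NC, OV55666, Lv3NC and KD553. The design text names viral delivery of the long noncoding RNA lncRNA55666 (overexpression, OV55666) and viral inhibition of its expression (knockdown), and KD553 was taken as that knockdown. It lists 5NC before the overexpression and 3NC before the knockdown, so Lv5NC and Lv3NC were taken as their controls. Blank is not described further in the labels. The labels do not say whether the libraries of a group came from separate cultures or animals, so p-values measure the spread between these libraries, which may be technical. The level of lncRNA55666 itself was not analysed here.

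These miRNAs are processed from polycistronic transcripts: in mammals miR-17, miR-18a, miR-19a, miR-20a, miR-19b and miR-92a share the miR-17-92 locus, miR-106a, miR-18b, miR-20b, miR-19b, miR-92a and miR-363 share a related locus on the X chromosome, and miR-106b, miR-93 and miR-25 lie together in an intron of MCM7. A miRNA binds its target mRNAs mainly through its seed near the 5′ end, and miR-17, miR-20a, miR-20b, miR-93, miR-106a and miR-106b have the same seed, while miR-18 and miR-19 each have their own. In mouse and human, miRNAs with the miR-17 seed repress the cell cycle inhibitor CDKN1A, and the miR-17-92 locus is raised in dividing cells and amplified in human B cell lymphomas. Of each hairpin, the arm that is usually loaded to repress targets is called the guide.

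Between 3108495 and 8739602 reads per library fell on miRNAs, and levels are given as CPM, the reads of a miRNA scaled to a fixed total of miRNA reads and adjusted between libraries with TMM factors. Mature miRNAs are nearly equal in length, so the levels of different miRNAs were compared without a length term. All 16 miRNAs together took 3725 to 21288 reads per library, or 0.112% to 0.265% of the miRNA reads. The second KD553 library stood apart from the other 9 libraries in other miRNAs too. RF identifiers took 26.3% of its listed reads, against 4.81% to 16.2% elsewhere. The summed level of 6 blood cell miRNAs was 2124 CPM in it and 180 to 1089 CPM in the others. Within that list 4 of 6 entries were highest there, among them chi-miR-223-3p, a myeloid miRNA, at 1018 CPM against 8.55 to 28.4 CPM, and chi-miR-150, a lymphocyte miRNA, at 743 CPM against 18.9 to 103 CPM. The remaining ones were chi-miR-223-5p, of the same hairpin (25.4 CPM against 0 to 0.613), and chi-miR-451-3p (0.292 CPM, which is 1 read, against 0). The erythroid chi-miR-451-5p was not highest there, at 337 CPM against 148 to 979 CPM. All 5 epithelial entries (the miR-200 family) were also highest there, and summed to 78.0 CPM against 6.95 to 23.5 CPM. Stromal miRNAs summed to 11768 CPM in that library and 11014 to 23400 CPM in the others. The summed level of the epithelial entries was thus far below that of the stromal entries in every library. Single entries overlapped, as chi-miR-200c (33.6 CPM) and the stromal chi-miR-199b-5p (6.42 CPM) in the second KD553 library. The part of these differences in the results on the miR-17, miR-18 and miR-19 miRNAs was not tested. In bulk samples, fewer cells of a type and less RNA per cell cannot be told apart.

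The guide of miR-93 was by far the most abundant member. chi-miR-93-5p had 1314 and 1685 CPM in Blank, 714 and 1237 CPM in Lv5NC, 1108 and 1235 CPM in OV55666, 1077 and 1298 CPM in Lv3NC, and 1600 and 2246 CPM in KD553 (replicates 1 and 2 in this order throughout). It supplied 88.5% to 95.1% of the reads with the miR-17 seed, with the lowest share in the second KD553 library. The summed level of that seed therefore followed mainly a miRNA of the MCM7 locus and not miR-17 itself.

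chi-miR-17-5p, the guide that names the family, had 50.1 and 59.1 CPM in Blank, 20.8 and 36.8 CPM in Lv5NC, 49.5 and 43.1 CPM in OV55666, 21.3 and 47.1 CPM in Lv3NC, and 69.9 and 123 CPM in KD553. Both KD553 libraries were above the other 8. In order of the group means, KD553 (96.6 ± 37.7 CPM, SD, n = 2) was followed by Blank (54.6 ± 6.42), OV55666 (46.3 ± 4.52), Lv3NC (34.2 ± 18.2) and Lv5NC (28.8 ± 11.3). The libraries of KD553 did not overlap with those of Blank, nor those of Blank with those of OV55666. OV55666 overlapped with Lv3NC, and Lv3NC with Lv5NC.

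chi-miR-19b-3p, the miR-19 guide, had 36.3 and 19.2 CPM in Blank, 19.7 and 19.96 CPM in Lv5NC, 12.5 and 48.1 CPM in OV55666, 10.5 and 10.1 CPM in Lv3NC, and 18.8 and 290 CPM in KD553. A single library, the second of KD553, held 994 reads, against 52 to 222 in the other 9, while the first KD553 library (92 reads) lay within the range of the OV55666 libraries. The group means ran from KD553 (155 ± 192 CPM, SD, n = 2) through OV55666 (30.3 ± 25.2), Blank (27.7 ± 12.1) and Lv5NC (19.8 ± 0.210) to Lv3NC (10.3 ± 0.331). Neighbours in this order overlapped, except that Lv3NC lay wholly below Lv5NC. The near-identical chi-miR-19a was almost absent, with 16 reads in the second KD553 library, 7 in the second Lv5NC library and at most 2 in any other.

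chi-miR-20a-5p, a cluster-mate of miR-17 with the same seed, had 43.4 and 59.8 CPM in Blank, 19.1 and 36.6 CPM in Lv5NC, 35.5 and 68.7 CPM in OV55666, 23.1 and 31.9 CPM in Lv3NC, and 43.1 and 122 CPM in KD553. Its mean over the 10 libraries, 48.3 CPM, was close to the 52.1 CPM of chi-miR-17-5p. chi-miR-18a-5p, the miR-18 guide from the same transcript, was lower, with 10.01 and 9.65 CPM in Blank, 5.46 and 8.25 CPM in Lv5NC, 7.0 and 12.1 CPM in OV55666, 4.46 and 6.05 CPM in Lv3NC, and 8.79 and 26.9 CPM in KD553. Both were highest in the second KD553 library, and both had their next highest value in the second OV55666 library.

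Of the guides outside the miR-17-92 locus, chi-miR-20b had 8.40 and 12.2 CPM in Blank, 9.01 and 16.99 CPM in Lv5NC, 8.88 and 8.89 CPM in OV55666, 8.32 and 15.8 CPM in Lv3NC, and 15.5 and 32.1 CPM in KD553. chi-miR-106b-5p was the least abundant guide that could be tested, with 5.01 and 3.82 CPM in Blank, 4.64 and 10.4 CPM in Lv5NC, 3.07 and 1.95 CPM in OV55666, 2.43 and 1.10 CPM in Lv3NC, and 3.07 and 13.1 CPM in KD553. All 7 tested guides had their highest level in the second KD553 library. So did 5 of 5 epithelial, 4 of 6 blood cell, 1 of 9 stromal and 1 of 6 locus partner entries (chi-miR-92b, of another locus, counted among the 6). Of the endothelial and striated muscle entries, 0 of 2 and 0 of 5 did. The share of all 448 tested miRNAs that were highest there was not counted, so the count for the guides has no background beside it. chi-miR-106a-5p had no read in Blank, Lv5NC and OV55666, 1 and 3 reads in Lv3NC, and 9 and 2 reads in KD553, and a cell without a count allows up to 3 reads. The 2 arms of miR-18b had at most 5 reads in a library.

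**Figure D1:**
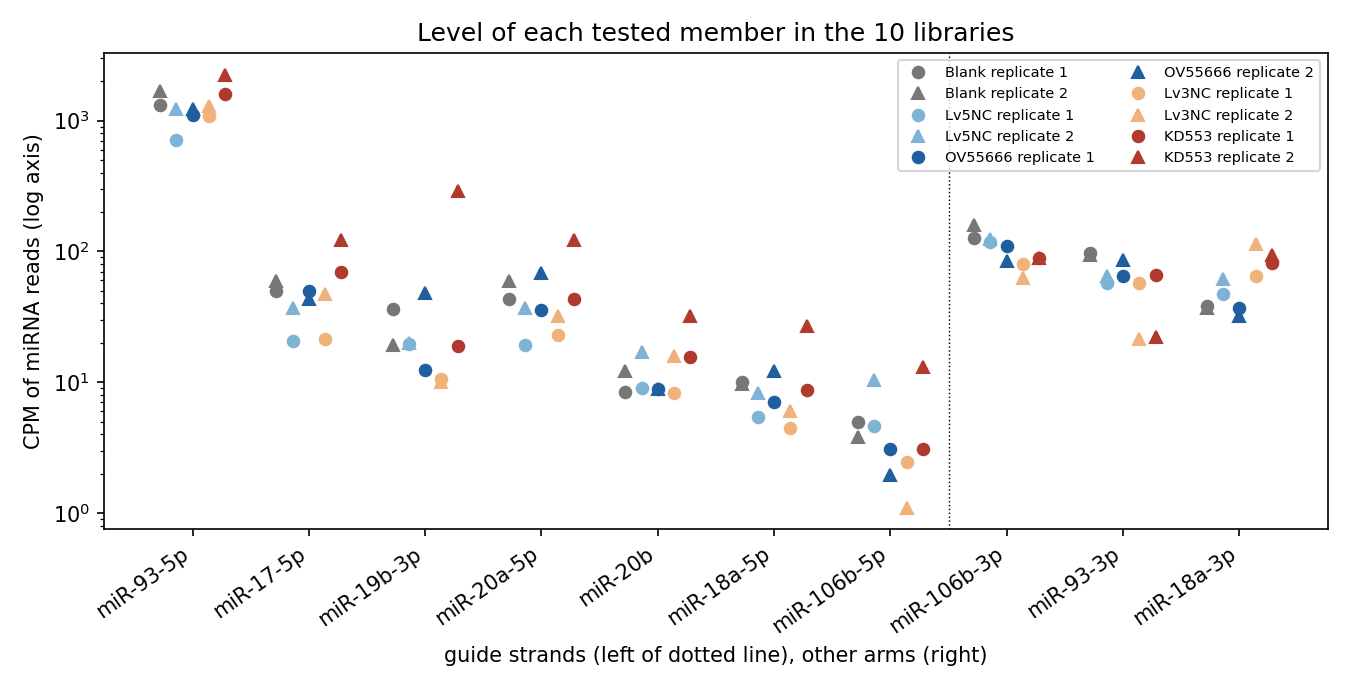
Level of each of the 10 tested members in CPM of miRNA reads on a log axis, with 1 point per library, colour for the group and shape for the replicate. chi-miR-93-5p (714 to 2246 CPM) lies far above the other guides, and the second KD553 library is the highest for all 7 guides but for none of the 3 other arms. The share of all 448 tested miRNAs that are highest there was not counted.

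The other arms of the same hairpins, which carry other seeds, had other orders of levels. The guides were named by the family seed and not by the reads here. chi-miR-18a-3p and chi-miR-106b-3p, counted as other arms, had more reads than the guide of their hairpin in all 10 libraries. chi-miR-18a-3p had 38.1 and 37.1 CPM in Blank, 47.0 and 61.7 CPM in Lv5NC, 37.0 and 31.9 CPM in OV55666, 65.1 and 113 CPM in Lv3NC, and 81.8 and 93.4 CPM in KD553. chi-miR-93-3p had 97.4 and 93.5 CPM in Blank, 57.6 and 64.5 CPM in Lv5NC, 65.0 and 86.0 CPM in OV55666, 57.0 and 21.4 CPM in Lv3NC, and 66.0 and 22.2 CPM in KD553. The second library of Lv3NC and that of KD553 were the lowest for chi-miR-93-3p, while for chi-miR-18a-3p they were the highest. chi-miR-106b-3p had 126 and 159 CPM in Blank, 118 and 125 CPM in Lv5NC, 111 and 84.7 CPM in OV55666, 80.5 and 62.3 CPM in Lv3NC, and 89.3 and 88.8 CPM in KD553. Both Blank libraries were above the other 8, the first of them just above the second Lv5NC library (126 against 125 CPM). chi-miR-17-3p had 4 to 18 reads and chi-miR-19b-5p 0 to 8 reads per library.

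The balance of the arms differed between hairpins and between libraries. The 5p arm made up 88.2% to 98.4% of the reads of miR-17 and 92.5% to 99.0% of those of miR-93, and was the minor arm of miR-18a (5.07% to 27.6%) and miR-106b (1.73% to 12.9%). For miR-18a and miR-106b the arm with the family seed was thus the rarer product in all 10 libraries. For miR-106b the 5p share was 12.9% (95% exact binomial interval 9.56% to 16.9%) in the second KD553 library, 7.66% (5.94% to 9.70%) in the second Lv5NC library and below those in the other 8. For miR-18a it was 6.41% and 5.07% in Lv3NC, 9.71% and 22.3% in KD553, 10.4% and 11.8% in Lv5NC, 15.9% and 27.6% in OV55666, and 20.8% and 20.6% in Blank. The intervals cover counting error only, since reads without molecular identifiers are not independent molecules. Both KD553 libraries were above both Lv3NC libraries in the miR-18a share, as both OV55666 libraries were above both Lv5NC libraries. These shares are given as a description, and differences between groups in them were not tested.

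**Figure D2:**
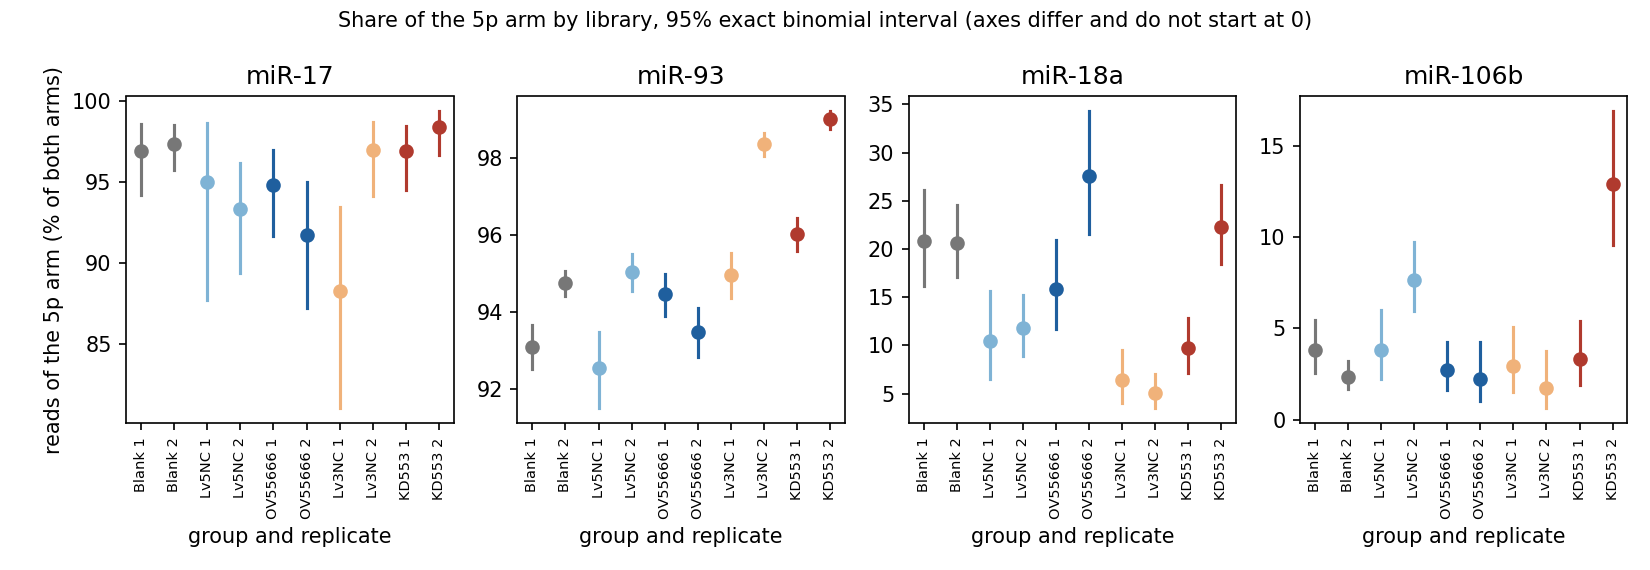
Share of the 5p arm among the reads of both arms, in percent, for 4 hairpins and the 10 libraries, with 95% exact binomial intervals as bars and colour for the group. The axes differ between panels. The second KD553 library has the highest 5p share of miR-17 (98.4%), miR-93 (99.0%) and miR-106b (12.9%), and the second OV55666 library that of miR-18a (27.6%).

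The reads of miRNAs that the miR-17-92 locus encodes did not keep a constant ratio to those of chi-miR-17-5p. The reads of chi-miR-20a-5p were 0.617 to 1.59 times those of chi-miR-17-5p, and those of chi-miR-18a-5p 0.126 to 0.281 times. The ratio of chi-miR-19b-3p to chi-miR-17-5p ran from 0.214 in the second Lv3NC library to 2.36 in the second KD553 library, with 1.12 in the second OV55666 library as the next highest. Mature miR-19b can also come from the related locus on the X chromosome, so its reads are not those of the miR-17-92 locus alone. Since these ratios are taken within a library, they do not depend on the scaling between libraries. In the second KD553 library, where that ratio was highest, 4 of the 6 blood cell entries were also at their highest, chi-miR-223-3p and chi-miR-150 among them (1018 and 743 CPM). The remaining ones were chi-miR-223-5p and chi-miR-451-3p, the latter with 1 read. The erythroid chi-miR-451-5p (337 CPM) and chi-miR-144-3p (0.292 CPM, against 0 to 5.19 CPM elsewhere) were not at their highest there. The part of the blood cell miRNAs in the ratio was not tested. In the second OV55666 library chi-miR-223-3p was at 13.4 CPM, chi-miR-150 at 103 CPM and chi-miR-451-5p at 817 CPM.

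**Figure D3:**
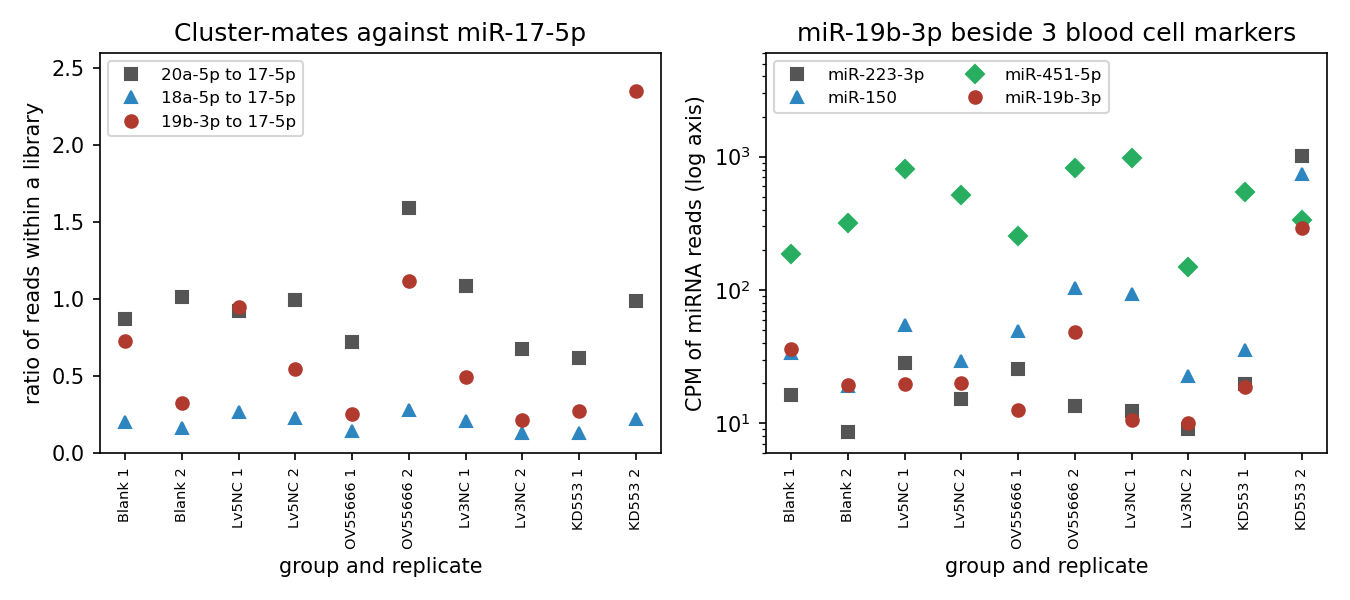
Left, ratio of the reads of 3 cluster-mates to those of chi-miR-17-5p in each of the 10 libraries. Right, level of chi-miR-19b-3p and of the 3 tested blood cell miRNAs chi-miR-223-3p, chi-miR-150 and chi-miR-451-5p in CPM on a log axis. In the second KD553 library the ratio for chi-miR-19b-3p is 2.36, and chi-miR-19b-3p, chi-miR-223-3p and chi-miR-150 are at their highest of the 10 libraries, while chi-miR-451-5p is not.

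For the comparisons, 448 miRNAs were tested, those that reached 5 CPM in 2 or more libraries, with limma on log2(CPM + 1), two-sided, with Benjamini-Hochberg adjustment over all 448 and a threshold of 0.05. This left 10 of the 16 members, namely 7 of 10 guides and 3 of 6 other arms. chi-miR-106a-5p, chi-miR-17-3p, chi-miR-18b-3p, chi-miR-18b-5p, chi-miR-19a and chi-miR-19b-5p were too low. chi-miR-106b-5p reached 5 CPM in 4 libraries, chi-miR-18a-5p in 9 and the other 8 in all 10. Fold changes are on the log2(CPM + 1) scale, which understates those of the low members. Members that are nearly identical in sequence (miR-17, miR-20a, miR-20b, miR-106a and miR-106b, or miR-19a and miR-19b) may have exchanged reads, and the sources used here do not give how such reads were assigned.

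The knockdown was compared with its control. Every tested guide was higher on average in KD553 than in Lv3NC, but none passed the threshold, and 0% of the 448 miRNAs did (36 had an unadjusted p under 0.05 in limma, and 0 passed with voom weights). chi-miR-19b-3p differed by a log2 fold change of 2.75 (SE 1.13, 95% interval 0.20 to 5.29, adjusted p = 0.527 in limma). chi-miR-17-5p differed by 1.52 (SE 0.58, interval 0.22 to 2.82, adjusted p = 0.527). The intervals of these 2 lay above 0 before adjustment over the 448 miRNAs.

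Among the other guides the log2 fold change was 1.498 for chi-miR-106b-5p, 1.41 for chi-miR-18a-5p, 1.39 for chi-miR-20a-5p, 0.90 for chi-miR-20b and 0.68 for chi-miR-93-5p, with adjusted p of 0.621 to 0.656. The other arms were nearer to 0, at 0.33 for chi-miR-106b-3p, 0.13 for chi-miR-93-3p and 0.02 for chi-miR-18a-3p, whose mean CPM was slightly lower in KD553 (87.6 against 89.2 CPM). All 10 fold changes were above 0, with a median of 1.15, against 192 of all 448 tested miRNAs and a median of -0.18, and 140 of 222 known miRNAs and a median of 0.29. Of the 248 tested miRNAs below 0, 166 were predicted ones. Here and below, counts over the 10 members are not counts of independent values. Several members share a transcript in mammals, and some may have exchanged reads. Both libraries of KD553 were above both of Lv3NC for 7 of the 10 members (6 guides and chi-miR-106b-3p), against 16.5% of the 448 miRNAs and 27.03% of the known ones. For 0 of the 10 they were below, against 15% of the 448 and 11.7% of the known ones.

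The size of several of these differences rested on the second KD553 library. Without it, chi-miR-19b-3p differed by 0.81 on the log2 scale, chi-miR-17-5p by 1.11, chi-miR-20a-5p by 0.65, chi-miR-18a-5p by 0.66, chi-miR-106b-5p by 0.60, chi-miR-93-5p by 0.44 and chi-miR-20b by 0.40. All 7 guides had a value above 0 there, chi-miR-18a-3p was at -0.07, and the median of the 10 was 0.62. The first KD553 library alone was above both Lv3NC libraries for 8 of the 10 members, against 29% of the 448 miRNAs. The share among the known miRNAs, to which all members belong, was not counted for this setting. Without the first KD553 library, chi-miR-19b-3p differed by 4.69, with the remaining library assumed to vary like the other groups. With the RF share of each library as a covariate, highest in the second KD553 library, chi-miR-19b-3p differed by 0.50 and chi-miR-17-5p by 0.83. Scaled to all reads of the table, the guides remained above 0 while chi-miR-106b-3p, chi-miR-93-3p and chi-miR-18a-3p were below 0.

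The overexpression was compared with its own control. No member passed the threshold in OV55666 against Lv5NC (adjusted p of 0.704 to 0.938 in limma), where 0.223% of the 448 miRNAs passed. That 1 miRNA, chi-miR-328-3p, is no member and was named after its values were seen. The guides did not go one way. The log2 fold change was 0.87 for chi-miR-20a-5p, 0.72 for chi-miR-17-5p (SE 0.58, interval -0.58 to 2.02), 0.41 for chi-miR-18a-5p, 0.32 for chi-miR-93-5p and 0.30 for chi-miR-19b-3p (SE 1.13, interval -2.24 to 2.85).

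chi-miR-20b stood at -0.44 and chi-miR-106b-5p at -1.21. Of the other arms, chi-miR-93-3p stood at 0.29, chi-miR-106b-3p at -0.32 and chi-miR-18a-3p at -0.63. In all, 6 of 10 members were above 0 with a median of 0.30, against 207 of 448 and -0.08 for all tested miRNAs, and 132 of 222 and 0.16 for the known ones. The libraries did not overlap for 2 members that were higher (chi-miR-17-5p and chi-miR-93-3p), against 19.9% of the 448 miRNAs and 22.5% of the known ones. They did not overlap for 4 that were lower (chi-miR-106b-5p, chi-miR-20b, chi-miR-106b-3p and chi-miR-18a-3p), against 28.3% and 15.8%. Without the second OV55666 library, chi-miR-19b-3p turned to -0.63, and without the first Lv5NC library chi-miR-93-5p turned to -0.080. The median of the 10 members was -0.042 without the second OV55666 library. With the RF share as a covariate, 4 of 10 members (3 of 7 guides) were above 0 and the median was -0.30, with chi-miR-17-5p at 0.12, chi-miR-20a-5p at 0.074, chi-miR-19b-3p at -1.63 and chi-miR-18a-5p at -0.43. Without the first Lv5NC library, chi-miR-17-5p was at 0.32 and chi-miR-20a-5p at 0.42.

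**Figure D4:**
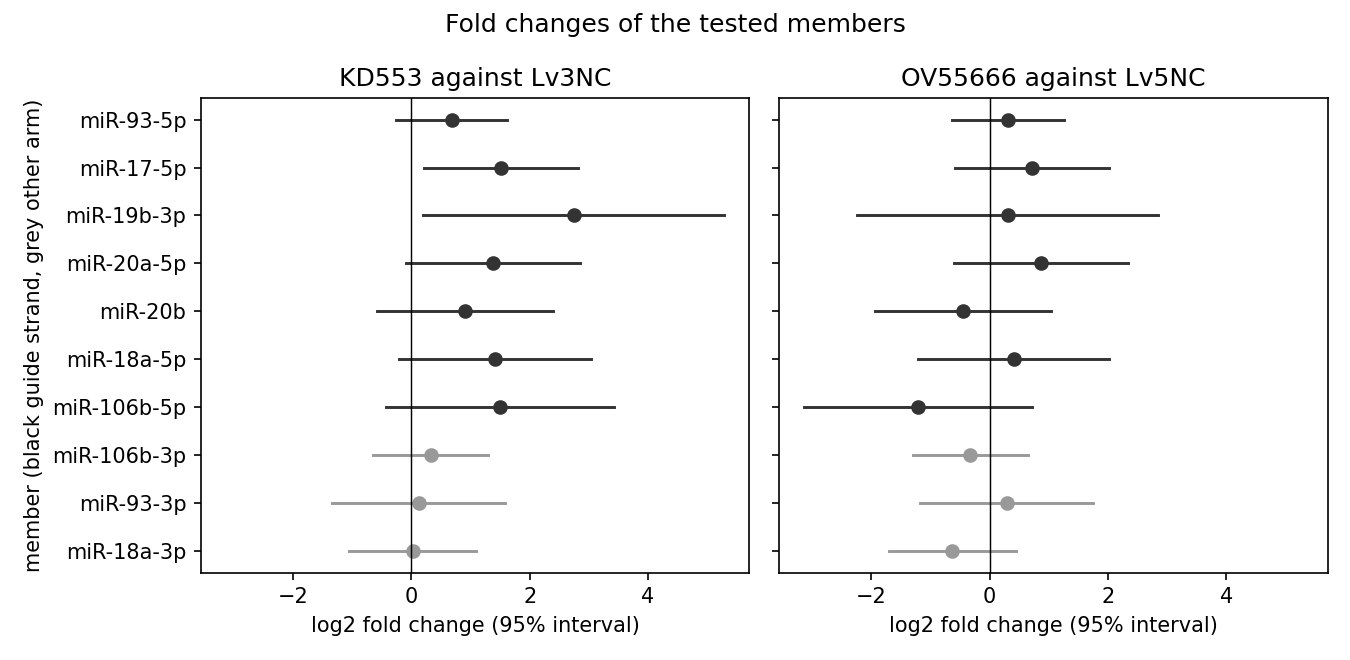
Log2 fold change of log2(CPM + 1) with its 95% interval from limma for the 10 tested members, left for KD553 against Lv3NC and right for OV55666 against Lv5NC, with guides in black and other arms in grey. On the left, the intervals of chi-miR-17-5p and chi-miR-19b-3p lie above 0 before adjustment, and on the right every interval spans 0.

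The difference between the overexpression and the knockdown effect was tested directly. It passed for 0 of the 10 members (adjusted p of 0.7497 to 0.976 in limma), where 0.223% of the 448 miRNAs passed. All 7 guides had a negative difference, that is, a higher fold change in the knockdown than in the overexpression. The sign turned for chi-miR-20a-5p (0.13) and chi-miR-93-5p (0.32) when scaled to all reads of the table, for chi-miR-20a-5p without the second KD553 library (0.23) and for chi-miR-93-5p without the second Lv5NC library (0.031). It was -2.71 for chi-miR-106b-5p (SE 1.21, adjusted p = 0.7497), -2.44 for chi-miR-19b-3p (SE 1.60, interval -6.04 to 1.16) and -0.80 for chi-miR-17-5p (SE 0.81, interval -2.63 to 1.04). With a library left out, the difference for chi-miR-19b-3p ran from -4.38 (without the first KD553 library) to -0.50 (without the second), and that for chi-miR-17-5p from -1.35 (without the second Lv3NC library) to -0.24 (without the first). Scaled to all reads of the table, it was -1.61 for chi-miR-19b-3p, -1.35 for chi-miR-106b-5p and -0.14 for chi-miR-17-5p. The interval of every guide's difference spans 0 and is wide, so a p that missed the threshold does not show that the 2 effects are alike.

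With reads summed over a seed before the fit, the miR-17 seed differed by 0.74 on the log2 scale between KD553 and Lv3NC, the miR-18 seed by 1.401 and the miR-19 seed by 2.74, with adjusted p of 0.664, 0.660 and 0.543 in limma. Between OV55666 and Lv5NC the corresponding values were 0.34, 0.39 and 0.26, with adjusted p of 0.847, 0.864 and 0.956. The sum for the miR-17 seed was close to the value of chi-miR-93-5p, which supplies most of its reads.

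The controls themselves were set against Blank. These comparisons share the control libraries with those above, so their values are not independent. In Lv3NC against Blank no member passed (adjusted p of 0.793 to 0.961 in limma), where 0.223% of the 448 miRNAs did. Both Lv3NC libraries lay below both Blank libraries for 8 of 10 members, 6 of them guides, against 20.3% of the 448 and 30.2% of the known miRNAs, and above them for 1, chi-miR-18a-3p, against 14.7% and 13.1%. The log2 fold change was -1.28 for chi-miR-19b-3p, -1.003 for chi-miR-106b-5p and -0.76 for chi-miR-17-5p among the guides, and 1.17 for chi-miR-18a-3p (SE 0.48, adjusted p = 0.793).

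In Lv5NC against Blank no member passed (adjusted p of 0.684 to 0.916 in limma), where 0% of the 448 miRNAs did and 34 had an unadjusted p under 0.05 (0 passed with voom weights). The libraries lay apart and lower for 6 members, against 20.1% of the 448 and 33.8% of the known miRNAs, and apart and higher for 1, again chi-miR-18a-3p, against 26.6% and 13.96%. chi-miR-17-5p differed by -0.95 and chi-miR-20a-5p by -0.92. The guides with a value above 0 were chi-miR-20b (0.27) and chi-miR-106b-5p (0.58) here, and chi-miR-20b (0.17) in Lv3NC against Blank.

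The treated groups were also set against Blank. In KD553 against Blank no member passed (adjusted p of 0.497 to 0.779 in limma), where 0.223% of the 448 miRNAs did. chi-miR-19b-3p differed by 1.47, which rested on the second KD553 library (290 CPM), since the first (18.8 CPM) lay below both Blank libraries (36.3 and 19.2 CPM). chi-miR-20b differed by 1.07 and chi-miR-17-5p by 0.76. The libraries lay apart and higher for 3 members (chi-miR-17-5p, chi-miR-20b and chi-miR-18a-3p), against 16.3% of the 448 and 21.2% of the known miRNAs, and apart and lower for 2 (chi-miR-106b-3p and chi-miR-93-3p), against 26.1% and 20.3%. In OV55666 against Blank no member passed (adjusted p of 0.998 in limma for each), where 0.223% of the 448 miRNAs did. All 10 log2 fold changes were below 0 with a median of -0.20, although the mean CPM of chi-miR-19b-3p (30.3 against 27.7) and chi-miR-20a-5p (52.1 against 51.6) was higher in OV55666 than in Blank. The libraries lay apart and lower for 6 members, against 18.5% of the 448 and 25.2% of the known miRNAs, and apart and higher for 0, against 15.6% and 10.8%.

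The partners of these miRNAs at their loci had values in both directions. chi-miR-92a-3p, which ends the miR-17-92 transcript and has another seed, ran from 3740 to 52990 CPM, and chi-miR-92b, a near-identical miRNA from elsewhere in the genome, from 2318 to 70130 CPM. chi-miR-92b was above chi-miR-92a-3p in 6 libraries and below it in 4, and the libraries of every group but Lv3NC were split between these patterns. In Blank, for example, chi-miR-92a-3p had 4061 and 46940 CPM and chi-miR-92b 30780 and 3206 CPM. These 2 may also have exchanged reads, which was not tested, so their separate levels and fold changes may not be those of each locus. chi-miR-25-3p, the cluster-mate of miR-93 and miR-106b, ran from 169 to 366 CPM and was also highest in the second KD553 library. Of the 5 tested arms listed as partners, with chi-miR-92b counted among them, 3 were above 0 and 2 below in KD553 against Lv3NC. Their median was 0.19, and 0 passed (adjusted p of 0.656 to 0.861 in limma). chi-miR-363-3p was too low to test.

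As a description over the 10 libraries, which share their scaling, chi-miR-17-5p was most like chi-miR-93-5p among the guides (Pearson's r of log2(CPM + 1) 0.911, Spearman's rho 0.903, r 0.761 without the second KD553 and the first Lv5NC library). chi-miR-18a-5p was most like chi-miR-20a-5p (r 0.954, rho 0.976, and 0.924 without the second KD553 and first Lv3NC libraries). The relation of chi-miR-17-5p to chi-miR-19b-3p was weak (r 0.652, rho 0.236) and fell to 0.270 without the second KD553 and first Lv5NC libraries.

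Of 170 other tested miRNAs with a mean of at least 50 CPM, those most like chi-miR-17-5p were chi-miR-425-5p (r 0.916), chi-miR-103-3p (0.861), chi-miR-29a-3p (0.852), chi-miR-26b-5p (0.820) and chi-miR-181b-5p (0.790). Without the second KD553 and first Lv5NC libraries these were 0.875, 0.694, 0.791, 0.669 and 0.542. Those most like chi-miR-19b-3p were chi-miR-21-5p (r 0.963), chi-miR-15a-5p (0.952), chi-miR-26b-5p (0.928), chi-miR-424-5p (0.917) and chi-miR-192-5p (0.854). Without the second KD553 and second OV55666 libraries these were 0.790, 0.740, 0.656, 0.498 and 0.236, so that the likeness of chi-miR-192-5p rested on those libraries.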

How the data were processed

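Small RNA was sequenced in 10 libraries. Per the file headers, the count columns hold the authors' whole-number read counts per identifier with no normalization; their unit was recorded as other because cells without a read hold a missing mark (50.7% of the deposited cells, and 22 of 160 member cells), which was read as 0. The 10 deposited TPM columns were not used. For the aligner, the miRNA database and the build, the sources used here give no name. Columns were assigned by sample title; the descriptions of the KD553 samples name other column prefixes, so which KD553 library is replicate 1 or 2 rests on the titles, and the group does not.

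CPM was computed on the miRNA total, adjusted by TMM (factors 0.829 to 1.18; 30% of ratios and 5% of levels trimmed). The log2(CPM + 1) values of 448 miRNAs were fitted in R 4.3.3 by limma 3.58.1, using statmod 1.5.0, with the means of 5 groups, an abundance trend and robust moderation (5 residual degrees of freedom), and was tested on simulated data. The planned test was used; no count model was run. All 16 members are named, with their locus partners and the 5 miRNAs most like chi-miR-17-5p and the 5 most like chi-miR-19b-3p. The members, lists and comparisons were chosen with earlier results of these data known. Alternatives were another pseudocount, filter, scaling or treatment of missing cells, known miRNAs only, only the groups compared, voom weights, a replicate block, summed seeds, the RF share as a covariate, and leaving out each library. Marker lists for endothelium and striated muscle were also summed: endothelial miRNAs held 27.9 to 102 CPM and striated muscle miRNAs 79.2 to 387 CPM per library.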

Additional observations from a re-analysis of the deposited data

How the results depend on the processing

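Of 507 values of single members under the alternatives, 483 kept their direction and their side of the threshold. Another 23 changed sign and 1 newly passed, that of chi-miR-19b-3p in KD553 against Lv3NC without the first KD553 library. That fit left 1 library in KD553. The 507 values cover KD553 against Lv3NC, OV55666 against Lv5NC and the difference between the effects. For the comparisons with Blank, values of single members under the alternatives were not recorded. Whether a member passed there under an alternative is thus not given. No alternative turned a guide below 0 in KD553 against Lv3NC, and the cause of the changes below was not tested. In KD553 against Lv3NC, chi-miR-18a-3p turned to -0.052 with median-of-ratios scaling, -0.52 scaled to all reads listed and -0.30 when the RF share entered the fit, and ran from -0.37 to 0.42 with a library left out (below 0 without the first Lv3NC or the second KD553 library). chi-miR-93-3p turned to -0.35 scaled to all reads, and ran from -0.64 to 0.89 with a library left out (below 0 without the second Lv3NC, at -0.56, or the first KD553 library). chi-miR-106b-3p turned to -0.23 scaled to all reads. In OV55666 against Lv5NC, chi-miR-18a-5p turned to -0.43 and chi-miR-19b-3p to -1.63 with the RF share. With a library left out, chi-miR-93-5p ran from -0.080 (without the first Lv5NC library) to 0.71, and chi-miR-19b-3p from -0.63 (without the second OV55666 library) to 1.24. In the difference between the effects, scaling to all reads turned chi-miR-106b-3p to 0.022, chi-miR-18a-3p to 0.030, chi-miR-20a-5p to 0.13 and chi-miR-93-5p to 0.32, and leaving out the TMM factor turned chi-miR-93-3p to -0.022. With a library left out, that difference ran from -0.60 to 0.93 for chi-miR-93-3p, from -0.76 to 0.031 for chi-miR-93-5p and from -1.25 to 0.23 for chi-miR-20a-5p.

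The count of miRNAs past the threshold was 0 in KD553 against Lv3NC and became 1 with a pseudocount of 5 CPM, 1 with no filter, 2 scaled to all reads, and 0 to 15 with a library left out. In Lv3NC against Blank it was 1 and became 2 with each of these settings, and 1 to 2 with a library left out. In KD553 against Blank it was 1 and became 2 with no filter, 11 scaled to all reads, 0 with voom weights, 3 with the replicate block, and 1 to 9 with a library left out. In Lv5NC against Blank it was 0 and became 1 scaled to all reads, and 0 to 2 with a library left out. In OV55666 against Lv5NC and in the difference it was 1 and became 0 with voom weights, 1 to 3 and 1 to 7 with a library left out. In OV55666 against Blank it became 1 to 2 with a library left out.

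Scaling to all reads moved the median of all 448 miRNAs by -0.26 in KD553 against Lv3NC and 0.11 in OV55666 against Lv5NC, and leaving out the TMM factor moved the latter by -0.18. Same-numbered libraries had deviations correlated at -0.02 to 0.32 over 10 pairs of groups (median 0.18, above 0.1 in 8 of them). With 2 libraries per group, these values do not settle whether the numbers pair the samples. The replicate block changed no call of a member in KD553 against Lv3NC, in OV55666 against Lv5NC or in the difference between the effects. Depth limits the members with few reads most: chi-miR-106b-5p had 6 to 63 reads and chi-miR-18a-5p 20 to 96.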
